A study of Homo sapiens with 13 samples.

Results

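The oxidative stress genes controlled by NRF2 were followed in K562, an established human chronic myeloid leukaemia line, through a pulse and chase of metabolically labelled RNA. The set holds 9 genes of 59204 human gene rows, chosen by symbol and matched through their Ensembl identifiers: NFE2L2, HMOX1, NQO1, GCLC, GCLM, TXN, TXNRD1, PRDX1 and SRXN1. Cells took up 30 µM 4-thiouridine (4sU), a uridine analogue that enters new RNA, for 12 h, with fresh medium every 3 h. They were then washed and moved to medium with 3 mM uridine, and were harvested 0, 1, 2, 4, 8 or 12 h later, with 2 replicates at each of the 6 times. One further library came from cells without 4sU, and it has no replicate. No group carried a drug, a transgene or a knockout, and all 13 libraries come from the same cell line. Treatment of RNA with iodoacetamide makes 4sU read as C (SLAM-seq), so each gene has a count of all reads and a count of reads with conversions, which the tables name nascent and which are called labelled here. Unlabelled RNA is the difference between both counts.

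NRF2, the protein made from NFE2L2, is a transcription factor that KEAP1 holds and hands to a CUL3 ubiquitin ligase for destruction. Electrophiles and oxidants modify KEAP1, NRF2 then builds up, pairs with small MAF proteins and binds antioxidant response elements, a site that the repressor BACH1 also occupies. Its classical targets make glutathione, run the thioredoxin and peroxiredoxin cycle, reduce quinones and break down haem. In erythroid cells a like site is bound by NFE2, a relative of NRF2 that takes part in globin gene control.

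Promoter sequences are shown for the genes whose window held the core of an antioxidant response element. The core was searched as TGACNNNGC on both strands, in windows from 250 bases before to 50 bases after each start site (RefSeq, GRCh38.p14). Of 34943 such windows of 300 bases, 13.3% held it, as did 24 of 130 windows (18.5%) of the other genes of the pathway described further on. Windows were found for 7 of the 9 genes, and GCLM and TXNRD1 held the core, TXNRD1 at 3 positions in 2 windows. The lines below read 5′ to 3′ on the strand of the gene, with the matching letters in capitals. GCLM is on the minus strand (chr1:93909436-93909484), and TXNRD1 is on the plus strand (chr12:104215660-104215708, chr12:104215751-104215799 and, at an internal start site, chr12:104286910-104286958). All but the first TXNRD1 line carry the core on the opposite strand.
GCLM: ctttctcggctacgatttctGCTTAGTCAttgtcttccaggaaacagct
TXNRD1, upstream start, distal: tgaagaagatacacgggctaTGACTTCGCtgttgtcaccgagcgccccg
TXNRD1, upstream start, proximal: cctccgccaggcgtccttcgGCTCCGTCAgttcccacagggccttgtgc
TXNRD1, internal start: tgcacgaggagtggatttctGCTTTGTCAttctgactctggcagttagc
The letters were not in the windows of NFE2L2, GCLC, TXN, NQO1 or SRXN1, which says nothing about sites outside these windows. TGANTCA, the site of AP-1, whose letters can overlap the core, was in 7.72% of all windows and in none of these genes. A match of letters is not a measured binding site.

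The libraries held 9004529 to 17425584 counts, so that 3 counts, the most that a gene at 0 allows, come to 0.172 to 0.333 CPM (counts scaled to a common library size). All 9 markers of K562 and erythroid cells, GATA1 among them, were detected and together made up 3027 to 6576 CPM. Markers of lymphocytes summed to 17.7 to 36.2 CPM, of monocytes and granulocytes to 5.10 to 16.0 CPM, and of epithelium and fibroblasts to 54.6 to 68.7 CPM. The library without 4sU had the lowest erythroid sum, 3027 CPM, and the highest lymphocyte and myeloid sums. It also had the highest ratio of Drosophila spike-in to human counts, 10.3% against 6.12% to 7.87% in the others. The spike-in genes divided the libraries along their first principal component (66.2% of the variance over 648 genes). The libraries of 0, 1 and 2 h and replicate 1 of 4 h lay on one side. On the other side lay replicate 2 of 4 h, the libraries of 8 and 12 h and also the one without 4sU. The part of these differences in the results was not tested beyond the values given beside them. In bulk RNA, fewer cells that express a gene and less RNA per cell cannot be told apart.

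HMOX1, the haem oxygenase that opens the haem ring and a textbook NRF2 target, was next to undetected. It had 2 counts in all 13 libraries, both unlabelled and both in replicate 1 of 4 h (0.156 CPM). The other 12 libraries had 0 counts. All comparisons below therefore cover 8 of the 9 genes, which passed the filters of every fit.

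The levels of the other genes spanned a wide range. Reads start at the 3′ end of a transcript, so these CPM values do not scale with its length. In cells without 4sU the order from the top was PRDX1, NQO1, TXN, SRXN1, GCLM, TXNRD1, NFE2L2 and GCLC. PRDX1, a peroxiredoxin that reduces hydrogen peroxide, stood at 2339 CPM, NQO1 at 155 CPM and TXN, or thioredoxin, at 131 CPM. GCLC, the catalytic subunit of the enzyme that starts glutathione synthesis, stood at 8.67 CPM. NFE2L2 itself was at 17.2 CPM and TXNRD1 at 22.8 CPM, and with 1 library these neighbours carry no estimate of spread. At 0 h the order was PRDX1, TXN, NQO1, TXNRD1, GCLM, NFE2L2, SRXN1 and GCLC. There, NQO1 (129.6 and 116 CPM) and TXNRD1 (118 and 123 CPM) overlapped, whereas all other neighbours were separate in both replicates.

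**Figure D1:**
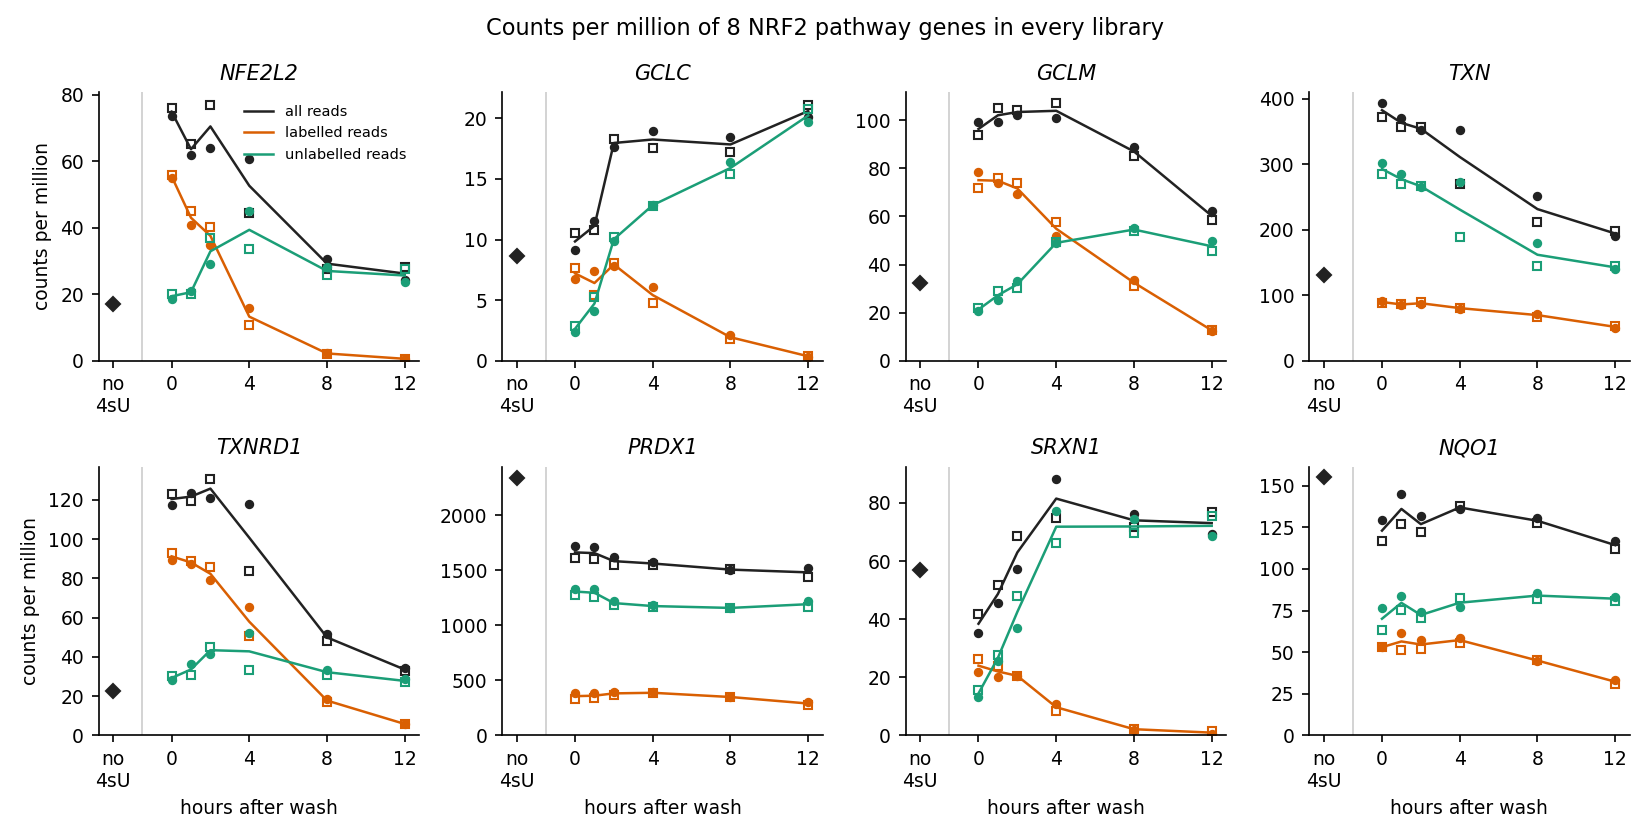
CPM of all reads (black), labelled reads (orange) and unlabelled reads (green) against hours after the wash, with replicate 1 as filled circles, replicate 2 as open squares, lines through the means and a diamond for the library without 4sU. Unlabelled SRXN1 and GCLC climb from 13.3 and 2.38 CPM in replicate 1 of 0 h, while total NFE2L2, TXNRD1 and TXN come down towards the diamond.

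The first comparison asks what share of the reads of each RNA carried label at the end of the pulse. RNA made in the pulse without a detected conversion counts as unlabelled, so the share is not the amount made. Without 4sU no read of any of the 8 genes was labelled. The zeros allow a labelled share of at most 0.00736% for PRDX1 and at most 1.99% for GCLC, the gene with the fewest counts. At 0 h the labelled share was highest for GCLM, at 79.2% and 76.5%, and for TXNRD1, at 76.1% and 75.4%. NFE2L2 reached 74.7% and 73.6%, and GCLC 73.9% and 72.6%, which overlap. SRXN1, the sulfiredoxin that repairs overoxidised peroxiredoxins, reached 62.0% and 62.8%, against a median of 57.9% over all genes tested. NQO1, the quinone reductase, was at 40.9% and 45.5%. TXN, at 23.4% and 23.5%, and PRDX1, at 22.3% and 20.4%, were lowest, near the 10.9th and 9.46th percentiles of all genes. The 8 genes thus fell into 5 with a share above that of the median gene and 3 below it.

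The second comparison asks how fast each labelled RNA was lost after the wash. The labelled RNA of all 8 genes fell (edgeR, slope against 0 over the 12 chase libraries, adjusted p from 1.3e-17 to 2.3e-04), as it did for 98.4% of all genes. Against the median gene, 3 fell faster (NFE2L2, SRXN1 and TXNRD1) and 3 fell slower (TXN, NQO1 and PRDX1). Over the 9652 genes tested, 35.7% were faster and 36.6% slower, so these counts are close to the background. Their apparent half-lives, from a fit of 1 exponential, ran from 1.86 h to more than 18.2 h. Their median was 4.21 h beside 4.30 h over all genes. Relative to each gene's own total, the medians were 6.65 h and 3.79 h.

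NFE2L2, the regulator, had the shortest half-life of the set under library-size scaling, with SRXN1 next. Its labelled level was 55.0 and 56.0 CPM at 0 h, 40.9 and 45.1 CPM at 1 h, 34.9 and 40.2 CPM at 2 h, 15.8 and 10.7 CPM at 4 h, 2.43 and 1.96 CPM at 8 h, and 0.608 and 0.546 CPM at 12 h. At every time both replicates lay below both of the time before. The slope was -0.59 ± 0.023 log2 per hour (SE, 12 libraries), against a median of -0.24 for all genes (edgeR adjusted p for the difference 1.6e-12). The apparent half-life was 1.86 h (95% interval 1.57 to 2.27 h), at the 2.80th percentile of all genes. Relative to each gene's own total the order turned, with NFE2L2 at 2.51 h and SRXN1 at 1.84 h, and the 95% intervals of these did not overlap. Over the same time its labelled share went from 74.7% and 73.6% to 2.50% and 1.94%.

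KEAP1, the adaptor that marks NRF2 for destruction, was also short-lived, with a half-life of 2.22 h (1.86 to 2.75 h). Its interval overlaps that of NFE2L2. Relative to each gene's own total the order turned, with KEAP1 at 2.04 h and NFE2L2 at 2.51 h, and these intervals overlapped too. The ratio of both labelled counts, taken within each library and without regard to own totals, fell over the chase. Which RNA was lost faster thus depended on the scale. Labelled NFE2L2 over KEAP1 stood at a log2 ratio of -0.01 ± 0.05 (SD, n = 2) at 0 h and -1.34 ± 0.16 at 12 h. Its slope was -0.10 log2 per hour (permutation test with 100000 resamples, two-sided, n = 12, p = 3e-05, adjusted over the 4 gene pairs tested 4e-05).

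Neither subunit of glutamate-cysteine ligase was called against the median gene under library-size scaling. GCLM, the modifier subunit, had 78.5 and 71.6 labelled CPM at 0 h, 69.2 and 74.0 CPM at 2 h, 52.0 and 57.8 CPM at 4 h, and 12.5 and 12.8 CPM at 12 h. Its first 3 times overlapped and the later ones were separate. The slope was -0.22 ± 0.014 log2 per hour and the half-life 4.86 h (4.15 to 5.87 h), and the difference from the median gene did not pass (edgeR adjusted p = 0.155). GCLM was slower than the median gene relative to each gene's own total, by 0.11 log2 per hour (adjusted p = 1.41e-10, half-life 6.64 h), and with no filter on low counts (0.06, adjusted p = 1.66e-06).

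GCLC had 6.76 and 7.66 labelled CPM at 0 h, 7.82 and 8.06 CPM at 2 h, 6.09 and 4.74 CPM at 4 h, 2.09 and 1.79 CPM at 8 h, and 0.348 and 0.390 CPM at 12 h. The last pair rests on 4 and 5 labelled counts. The levels of 0 and 1 h overlapped, those of 2 h lay just above them, and those of 8 and 12 h lay below all others. Its slope was -0.31 ± 0.031 log2 per hour and its half-life 3.56 h (2.65 to 5.44 h). The difference from the median gene missed the threshold (edgeR adjusted p = 0.0529) and passed it under several alternatives, such as DESeq2's test (adjusted p = 0.017). Relative to own totals GCLC was faster, at -0.11 log2 per hour from the median gene (adjusted p = 1.13e-04), so that both subunits were called there, on opposite sides. It also passed without replicate 1 of 0 h (0.0295), replicate 2 of 0 h (0.0466), replicate 2 of 1 h (0.026) or replicate 1 of 4 h (0.0303). Within libraries, labelled GCLC fell relative to GCLM by 0.13 log2 per hour (permutation test, two-sided, n = 12, p = 4.6e-04, adjusted over the 4 pairs 4.6e-04).

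The thioredoxin cycle joined a long-lived and a short-lived RNA. TXN, the small dithiol protein that carries electrons, had 91.9 and 87.4 labelled CPM at 0 h, 79.5 and 81.1 CPM at 4 h, 72.0 and 67.3 CPM at 8 h, and 50.1 and 53.3 CPM at 12 h. Its slope was -0.07 ± 0.009 log2 per hour, slower than the median gene (edgeR adjusted p = 1.5e-15), with a half-life of 13.8 h (12.0 to 16.2 h). Its fitted loss rate of 0.0504 per hour became 0.0275 under spike-in scaling. TXNRD1, the selenoprotein that recharges thioredoxin, had 89.5 and 93.0 labelled CPM at 0 h, much like TXN. By 4 h it was at 65.3 and 50.5, by 8 h at 18.4 and 17.0, and by 12 h at 5.65 and 5.93 CPM. Its slope was -0.35 ± 0.018 log2 per hour, faster than the median gene (edgeR adjusted p = 3.8e-06), with a half-life of 3.21 h (2.66 to 4.06 h).

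The ratio of labelled TXN to TXNRD1 stood at -0.03 ± 0.09 log2 at 0 h and at 3.15 ± 0.01 at 12 h (SD, n = 2). It rose by 0.28 log2 per hour (permutation test, two-sided, n = 12, p = 1e-05, the smallest that 100000 resamples can give, adjusted over the 4 pairs 2e-05). The call for TXNRD1 against the median gene depended on the scaling. Its total RNA fell during the chase too, and relative to each gene's own total it was 0.10 log2 per hour slower than the median gene (edgeR adjusted p = 9.23e-08), with a half-life of 6.66 h. The labelled share of TXN, which is the level relative to its own total, rose by 0.02 log2 per hour (edgeR adjusted p = 0.0234). That share was 23.4% and 23.5% for 0 h, 22.6% and 30.1% for 4 h, 28.7% and 31.8% for 8 h, and 26.3% and 26.9% for 12 h. Both libraries of 8 h and of 12 h lay above both of 0 h.

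The peroxiredoxin pair showed the widest gap. PRDX1 had 383 and 329 labelled CPM at 0 h, 391 and 383 CPM at 4 h, 349 and 347 CPM at 8 h, and 302 and 276 CPM at 12 h. Only the libraries of 12 h lay below all earlier ones. Its slope of -0.04 ± 0.008 log2 per hour was slower than that of the median gene (edgeR adjusted p = 1.3e-17), and the data set a lower limit of 18.2 h to its half-life. The fall itself was lost under spike-in scaling (adjusted p = 0.687) and relative to its own total (0.159). SRXN1, whose protein serves PRDX1, had 21.8 and 26.2 labelled CPM at 0 h, 10.9 and 8.50 CPM at 4 h, 1.92 and 2.30 CPM at 8 h, and 0.521 and 1.33 CPM at 12 h. The last pair rests on 6 and 17 labelled counts.

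The slope of SRXN1 was -0.44 ± 0.025 log2 per hour, faster than the median gene (edgeR adjusted p = 2.6e-07), and the half-life was 2.46 h (2.02 to 3.14 h). Labelled PRDX1 over SRXN1 rose from a log2 ratio of 3.89 ± 0.35 at 0 h to 8.36 ± 0.99 at 12 h (SD, n = 2). The rise was 0.41 log2 per hour (permutation test, two-sided, n = 12, p = 1e-05, the smallest possible, adjusted over the 4 pairs 2e-05).

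NQO1 had a stable RNA, at 53.0 labelled CPM in both libraries of 0 h, 58.8 and 55.7 CPM at 4 h, 44.7 and 45.2 CPM at 8 h, and 33.5 and 30.9 CPM at 12 h. The 8 h and 12 h libraries lay below all earlier ones. The slope was -0.07 ± 0.011 log2 per hour, slower than the median gene (edgeR adjusted p = 3.9e-13), with a half-life of 14.1 h (10.4 to 22.0 h). Its fitted loss rate of 0.0491 per hour became 0.0262 under spike-in scaling. In order of half-life under library-size scaling, the intervals of the neighbours NFE2L2 and SRXN1, SRXN1 and TXNRD1, TXNRD1 and GCLC, GCLC and GCLM, TXN and NQO1, and NQO1 and PRDX1 overlapped. Between GCLM (upper bound 5.87 h) and TXN (lower bound 12.0 h) they did not.

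**Figure D2:**
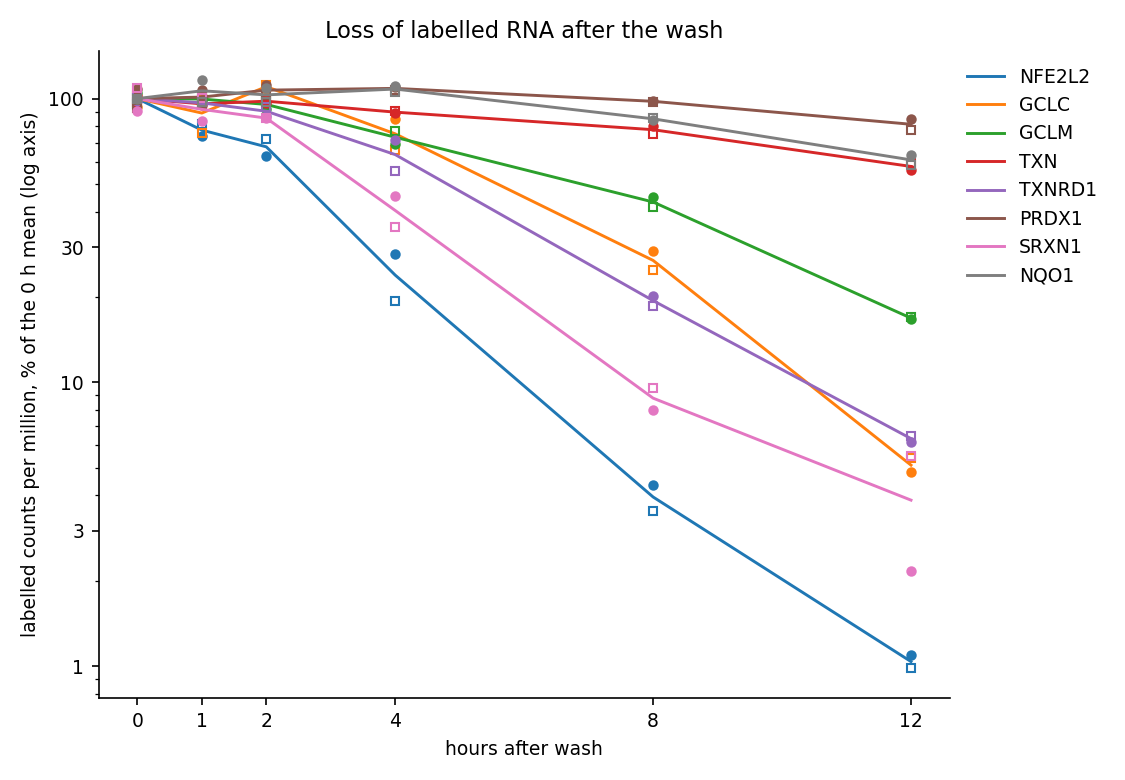
Labelled CPM as a percent of the gene's 0 h mean (log axis) against hours after the wash, with replicate 1 filled, replicate 2 open and lines through the means. NFE2L2 and SRXN1 fall steepest, and PRDX1, TXN and NQO1 lie at the top from 4 h on, while GCLC is highest at 2 h.

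The loss was not a single exponential for every gene. A curvature term was negative for 5 of 8 genes, meaning that the fall steepened with time: NQO1, GCLC, GCLM, TXNRD1 and PRDX1 (edgeR adjusted p of 0.011, 7.9e-04, 2.0e-04, 2.2e-04 and 0.032). Over all genes it was negative for 33.3% and positive for 0.539%, and the fitted term was below 0 in all 8. Relative to own totals the calls of GCLC and GCLM were lost (edgeR adjusted p of 0.0856 and 0.0993). Over 2 to 12 h those of NQO1, GCLC, TXNRD1 and PRDX1 were lost (0.148, 0.336, 0.316 and 0.326). Over 0 to 4 h NQO1, GCLC, GCLM and PRDX1 lost theirs, while SRXN1 and NFE2L2 gained a negative call. The PRDX1 call was lost in the absence of replicate 2 of 0 h (adjusted p = 0.12), replicate 1 of 4 h (0.0777) or replicate 2 of 12 h (0.115). A negative call was gained by NFE2L2 without replicate 2 of 4 h (0.034) and by SRXN1 without replicate 2 of 12 h (0.0106). Over 0 to 4 h alone, labelled NQO1 and PRDX1 showed no fall, with slopes of -0.00038 and 0.01003 log2 per hour and edgeR adjusted p of 0.991 and 0.701, and the fall of GCLC lost its call (-0.10, adjusted p = 0.12). In that window the call for TXNRD1 against the median gene was also lost (adjusted p = 0.634). The half-lives therefore describe the chase as a whole and are called apparent.

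The third comparison asks what the 12 h pulse went with in total RNA, from 0 h against the library without 4sU. Of the 8 genes 4 were higher and 3 lower, where 32.9% and 32.4% of the 16255 genes tested were called. TXNRD1 was at 22.8 CPM without 4sU and at 118 and 123 CPM at 0 h, a log2 difference of 2.33 ± 0.14 (SE, edgeR adjusted p = 3.1e-13). NFE2L2 was at 17.2 CPM without 4sU and at 73.7 and 76.1 CPM at 0 h, higher by 2.05 ± 0.16 (adjusted p = 1.6e-11). GCLM went from 32.2 to 99.1 and 93.6 CPM, higher by 1.51 ± 0.10 (adjusted p = 2.1e-12), and TXN from 131 to 393 and 372 CPM, higher by 1.47 ± 0.12 (adjusted p = 5.7e-11). GCLM and TXNRD1, whose promoter windows are printed above, are among these 4, as are NFE2L2 and TXN, whose windows held no match.

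The other genes did not share this direction. SRXN1 was lower, at -0.64 ± 0.12 on the log2 scale, from 56.8 CPM without 4sU to 35.1 and 41.8 CPM at 0 h (edgeR adjusted p = 5.6e-05). PRDX1 was lower, at -0.57 ± 0.08, from 2339 to 1717 and 1608 CPM (adjusted p = 7.9e-07), and NQO1 was lower, at -0.41 ± 0.10, from 155 to 129.6 and 116 CPM (adjusted p = 7.9e-04). GCLC differed by 0.11 ± 0.18 with an approximate 95% interval of -0.24 to 0.45 (adjusted p = 0.615). Spike-in totals as library sizes moved the median gene in this contrast from 0.04 to 0.54 and the calls over all genes from 5343 higher and 5271 lower to 7543 and 2993. Under that scaling the 4 rises held (log2 1.97 to 2.83) and GCLC was higher too (0.61, adjusted p = 0.0161), which is about the shift of the median gene. NQO1 turned to 0.09, and PRDX1 (-0.07) and SRXN1 (-0.14) were no longer called, so the lower level of these 3 holds for TMM scaling and not for spike-in scaling. With spike-in side as a factor, all 7 calls held their direction. Within a time only the libraries of 4 h differ in side, so they alone set this factor, and it cannot settle this contrast.

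**Figure D3:**
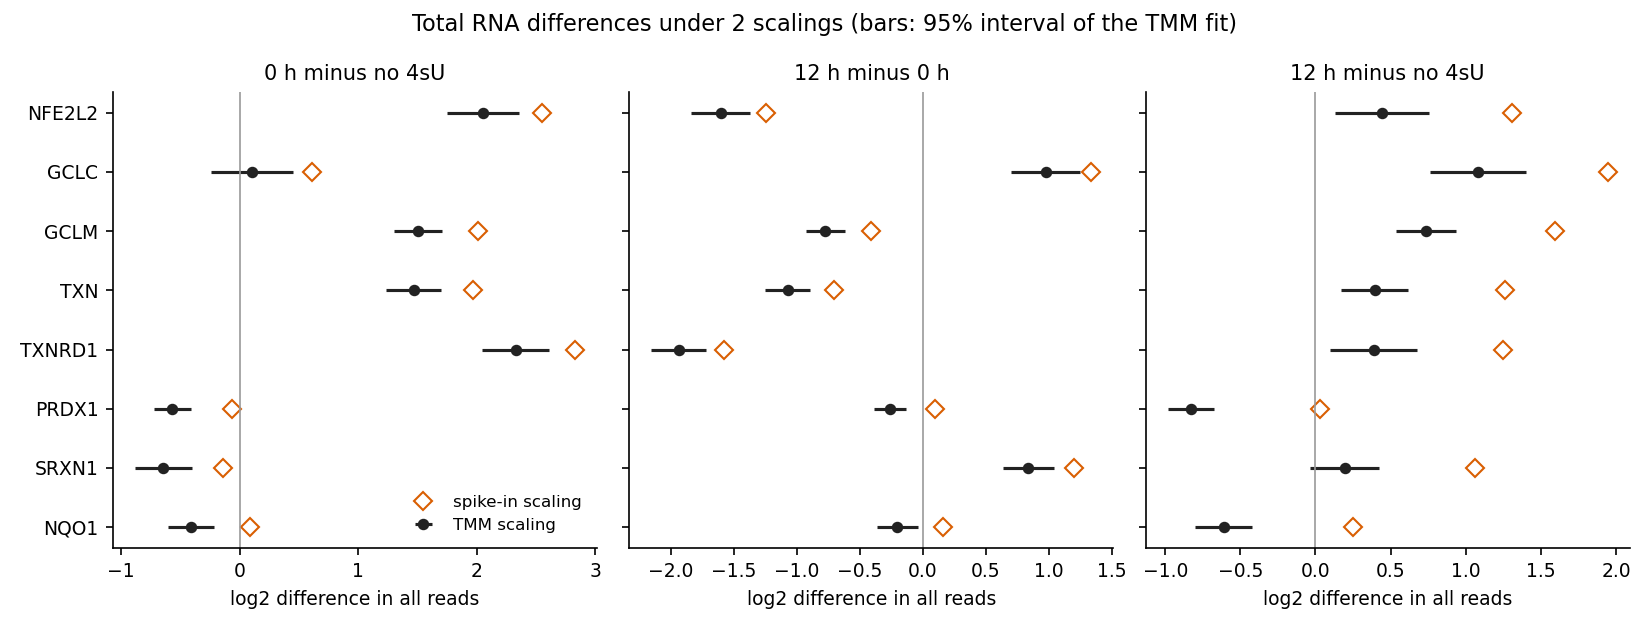
Log2 differences in total reads for 3 contrasts (panels), with filled circles and approximate 95% intervals for TMM scaling and open diamonds for spike-in scaling. TXNRD1, NFE2L2, GCLM and TXN lie right of 0 at 0 h under both scalings and left of 0 in the chase. NQO1 changes sides of 0 with the scaling at 0 h and at 12 h, and PRDX1 at 12 h only.

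During the first hour after the wash no total moved beyond the test. Of the 8 genes 0 were higher and 0 lower (edgeR), beside 0.301% and 0.0431% of all genes. SRXN1, at 0.36 ± 0.11 log2, was the 1 gene of the 8 with an unadjusted p under 0.05 (edgeR adjusted p = 0.232). DESeq2 and the fit with the replicate block also called none of the 8.

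By 4 h, 2 genes were higher and 3 lower than at 0 h, beside 18.0% and 13.5% of all genes. SRXN1 went from 35.1 and 41.8 CPM at 0 h through 45.5 and 51.9 CPM at 1 h and 57.4 and 68.6 CPM at 2 h to 88.1 and 74.9 CPM at 4 h. Both libraries of each time lay above both of the time before, and the log2 difference at 4 h was 1.04 ± 0.10 (edgeR adjusted p = 2.6e-08). GCLC went from 9.14 and 10.6 CPM at 0 h to 11.5 and 10.7 CPM at 1 h, 17.7 and 18.3 CPM at 2 h, and 19.0 and 17.5 CPM at 4 h, a difference of 0.84 ± 0.14 (adjusted p = 4.9e-05). The step for GCLC lay between 1 and 2 h, and its level stayed between 17.2 and 19.0 CPM from 2 to 8 h.

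NFE2L2 fell by 0.56 ± 0.11 log2 to 60.8 and 44.5 CPM at 4 h (edgeR adjusted p = 4.1e-04). TXN fell by 0.35 ± 0.09 (adjusted p = 0.0040) and TXNRD1 by 0.31 ± 0.10 (adjusted p = 0.0213), but these 2 calls rest on replicate 2 of 4 h. It held 269.6 CPM of TXN and 83.8 CPM of TXNRD1 where replicate 1 held 353 and 118. Without it the log2 differences were -0.18 for TXN and -0.10 for TXNRD1. Spike-in side as a factor rests on the same difference between the libraries of 4 h and is no separate check. It gave -0.17 and -0.08 (edgeR adjusted p of 0.152 and 0.538). In the absence of replicate 1 of 0 h both calls were lost as well (adjusted p of 0.0812 and 0.0927), and without replicate 2 of 0 h that of TXNRD1 (0.0884), while PRDX1 was then called lower (0.0296). Spike-in scaling, which moved the median gene at 4 h to 0.10 and the calls from 2928 higher and 2188 lower to 3122 and 1045, also lost both (0.055 and 0.19).

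By 12 h, 2 genes stood above and 6 below their 0 h level, beside 28.9% and 27.3% of all genes. TXNRD1 was at 34.2 and 32.9 CPM, a log2 difference of -1.94 ± 0.11 (edgeR adjusted p = 1.2e-13), and NFE2L2 at 24.3 and 28.1 CPM, a difference of -1.61 ± 0.12 (adjusted p = 2.1e-11). TXN was at 190.5 and 198 CPM, a difference of -1.07 ± 0.09, and GCLM at 62.1 and 58.3 CPM, a difference of -0.77 ± 0.08 (adjusted p of 2.7e-10 and 5.8e-09). This comparison and that of the pulse share the 0 h libraries, so their values for these 4 genes are not independent.

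GCLM kept its 0 h level for longest among the 4, with 101 and 107 CPM still present at 4 h and 88.9 and 85.1 CPM at 8 h. TXNRD1 by contrast was already at 51.8 and 48 CPM at 8 h, and NFE2L2 at 30.7 and 27.7. GCLC stood at 20.1 and 21.1 CPM at 12 h, higher than at 0 h by 0.98 ± 0.14 log2 (edgeR adjusted p = 1.4e-06). SRXN1, at 69.3 and 76.8 CPM, was higher by 0.84 ± 0.10 (adjusted p = 1.5e-07).

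PRDX1 (lower, at -0.26 ± 0.07, edgeR adjusted p = 0.0015) and NQO1 (lower, at -0.20 ± 0.08, adjusted p = 0.0425) moved least by 12 h. The NQO1 call was lost without replicate 1 of 0 h (adjusted p = 0.471) or without replicate 1 or 2 of 12 h (0.0632 and 0.21). With spike-in side as a factor, which the libraries of 4 h alone set, neither was called (edgeR adjusted p of 0.213 for NQO1 and 0.123 for PRDX1). Spike-in scaling moved the median gene at 12 h to 0.36 and the calls from 4698 higher and 4443 lower to 6571 and 2228. It turned PRDX1 to 0.10 and NQO1 to 0.16, and it kept the direction and the call of the other 6.

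Against the library without 4sU, 5 genes were higher at 12 h and 2 lower, beside 27.5% and 23.5% of all genes. GCLC was higher by 1.08 ± 0.16 log2 and GCLM by 0.73 ± 0.10 (edgeR adjusted p of 4.3e-06 and 1.4e-06). NFE2L2 was higher by 0.44 ± 0.16, TXN by 0.39 ± 0.11 and TXNRD1 by 0.39 ± 0.15 (adjusted p of 0.0228, 0.0058 and 0.0304). The NFE2L2 call was lost without replicate 2 of 12 h (0.144), and that of TXNRD1 without either library of 12 h (0.0964 and 0.0513). PRDX1 was lower, at -0.83 ± 0.08 and NQO1 lower, at -0.61 ± 0.10 (adjusted p of 2.4e-09 and 9.2e-06). SRXN1 differed by 0.19 ± 0.12, with an approximate interval of -0.03 to 0.42 (adjusted p = 0.169).

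This contrast is the one most open to scaling. With spike-in totals the median gene moved from 0.08 to 0.95 and the calls from 4463 higher and 3828 lower to 10133 and 899. Then 6 of the 8 were higher, SRXN1 among them (1.06), and NQO1 (0.25) and PRDX1 (0.03) turned to the other side of 0 without a call. NQO1 and PRDX1 were the lowest of the 8 under both scalings.

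Unlabelled RNA adds what total and label cannot show alone. For SRXN1 it was 13.3 and 15.5 CPM at 0 h, 25.6 and 27.8 CPM at 1 h, 37.0 and 48.1 CPM at 2 h, and 77.3 and 66.4 CPM at 4 h. From 4 h it stayed between 66.4 and 77.3 CPM, above the 56.8 CPM of cells without 4sU. For GCLC it was 2.38 and 2.89 CPM at 0 h, 9.85 and 10.2 CPM at 2 h, 12.9 and 12.8 CPM at 4 h, and 19.7 and 20.7 CPM at 12 h, against 8.67 CPM without 4sU. In both genes the unlabelled gain exceeded the labelled loss, so the total was higher at 12 h than at 0 h.

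In NFE2L2 the unlabelled level peaked and came down. It was 18.7 and 20.1 CPM at 0 h, 29 and 36.8 CPM at 2 h, 45.0 and 33.7 CPM at 4 h, and 23.7 and 27.5 CPM at 12 h. TXNRD1 followed a like course, with 28.1 and 30.3 CPM at 0 h, 41.6 and 45.2 CPM at 2 h, 52.3 and 33.3 CPM at 4 h, and 28.5 and 27.0 CPM at 12 h. For both genes the 2 h libraries lay above those of 0 h, and replicates of 4 h were far apart. GCLM gained unlabelled RNA up to 8 h (20.6 and 22.0 CPM at 0 h, 55.1 and 53.9 CPM at 8 h).

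The unlabelled RNA of TXN went down instead, to 0.487 of its 0 h mean at 12 h. It was 301 and 284 CPM at 0 h, 273 and 188 CPM at 4 h, 179 and 145 CPM at 8 h, and 140.3 and 145 CPM at 12 h. Unlabelled TXN at 0 h exceeded the whole level of TXN in cells without 4sU, 131 CPM, in both replicates. NQO1, with 63.5 to 85.8 CPM in all chase libraries, and PRDX1, with 1154 to 1334 CPM, stayed in a narrow band below their totals without 4sU. The PRDX1 means after 0 h were all below that of 0 h too, at 0.886 to 0.992 of it. These unlabelled levels are descriptions and were not tested.

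Features of the 3′ ends were compared as a description, since only T positions can carry the label. In the last 250 bases of the transcript, 31.6% of letters were T for the median of 8382 genes. TXN was at 38.8% (85.8th percentile), GCLM at 40.4% (91.5th), NFE2L2 at 38% and NQO1 at 30.4% (43.8th). PRDX1, which like TXN had a low labelled share, was at 34.4% (63.7th). The motif ATTTA, found in 41.3% of all windows, occurred 2 times in NFE2L2, SRXN1 and GCLM, 1 time in GCLC, TXNRD1 and TXN, and not in NQO1 or PRDX1.

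Some reads may belong to neighbours or copies. On the GENCODE 29 annotation of GRCh38, TXNRD1 (chromosome 12, 104215779 to 104350305, plus strand) contains RPL18AP3, a processed pseudogene on the same strand with 22650 counts of its own. PRDX1 (chromosome 1, 45511036 to 45523047, minus strand) overlaps MMACHC on the opposite strand (1835 counts). NFE2L2 (chromosome 2, 177227595 to 177392697, minus strand) overlaps AGPS on the opposite strand (3949 counts). Whether counting used the strand is not given in the sources used here. The 7 TXN pseudogenes together held 12.4% as many counts as TXN, with TXNP6 at 9.64%, and PRDX1P1 held 2.74% as many as PRDX1, so TXN is the least certain in this respect.

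The remaining genes lie on chromosome 16 (NQO1, 69706996 to 69726951), chromosome 6 (GCLC, 53497341 to 53616970), chromosome 1 (GCLM, 93885205 to 93909456), chromosome 9 (TXN, 110243811 to 110256640), chromosome 20 (SRXN1, 646615 to 653370) and chromosome 22 (HMOX1, 35380361 to 35394214). HMOX1 is on the plus strand and the others are on the minus strand. No gene that overlaps them held more than 3 counts.

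Another 113 genes of the wider pathway, in 7 lists drawn up from textbook roles, place the members in context. Of 92 with enough labelled reads, 26 fell faster and 60 slower than the median gene, beside 35.7% and 36.6% of all genes. Their median half-life was 6.85 h, against 4.30 h over all genes. The regulators around NRF2 were the short-lived list, with 9 of 14 faster, 2 slower and a median of 3.00 h. NFE2 (1.79 h), MAFG, a small MAF partner (2.03 h), BACH1, the competing repressor (2.10 h), and SQSTM1, the autophagy receptor that binds KEAP1 (3.42 h), were faster than the median gene. RBX1, the RING subunit of the ligase (21.1 h), and DPP3, which binds KEAP1 (8.08 h), were slower. Relative to each gene's own total SQSTM1 was at 5.15 h (4.37 to 6.29 h) and BACH1 at 3.33 h (2.76 to 4.19 h). The all-gene median was 3.79 h on that scale, and 11 of the 14 were faster and 3 slower.

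Enzyme lists leaned the other way. In the glutathione list 4 of 21 were faster and 17 slower, with a median of 7.74 h. CHAC1, which degrades glutathione (0.874 h), and SLC7A11, the cystine importer (2.34 h), were the shortest, and GSTO1 (14.6 h) and GSTP1 (26.3 h), both glutathione transferases, the longest. GSR, glutathione reductase, was at 12.4 h. With own totals as the offset 1 of the 21 was faster and 17 slower. SLC7A11 was then at 3.44 h (3.04 to 3.98 h), an interval that holds the all-gene median of 3.79 h on that scale.

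In the thioredoxin and peroxiredoxin list 5 of 15 were faster and 10 slower, with a median of 10.0 h. TXNIP, which binds and inhibits thioredoxin (1.63 h), and SESN2, a sestrin (2.01 h), were the shortest. PRDX5 (19.4 h) and TXNDC17 (at least 13.9 h) were the longest. Under library-size scaling TXN and PRDX1 are thus on the side of most of this list, and TXNRD1 and SRXN1 on the other. Relative to each gene's own total TXNRD1 was slower than the median gene too, where 4 of the list were faster and 10 slower.

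Of the NADPH supply list 13 of 14 were slower and 1, IDH1 (3.38 h), faster, with a median of 6.96 h. With own totals as the offset 13 were slower and 0 faster, and IDH1 was at 4.66 h (3.98 to 5.61 h). NADK, the kinase that makes NADP, was at 5.23 h, TKT at 16.4 h and TALDO1 at 17.6 h. All 6 tested genes for superoxide and peroxide removal were slower (median 11.5 h), from OXSR1 at 5.85 h and SOD2 at 6.90 h to ATOX1 at 18.5 h and SOD1 at 21.7 h.

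Haem and iron genes split, with 3 of 8 faster and 3 slower (median 4.65 h). SLC48A1, a haem transporter (2.56 h), and HMOX2, the constitutive haem oxygenase (2.91 h), were the shortest. The ferritin chains FTH1 (14.5 h) and FTL (21.0 h) were the longest. In the detoxification list 4 of 14 were faster and 9 slower (median 7.28 h), from OSGIN1 (1.64 h) and OSGIN2 (2.72 h) to AKR1C1 (at least 13.8 h) and PIR (at least 12.1 h). The counts over all lists were the same under spike-in scaling, and 22 faster and 62 slower relative to each gene's own total. On that scale 6 of the long half-lives printed above as values had an upper bound over 48 h or none. Their lower limits were 48.3 h for FTH1, 73.0 h for TALDO1 and 46.4 h for SOD1. Those of PRDX5, GSTP1 and TKT were 53.7 h, 37.5 h and 19.1 h. Of the genes printed above with lower limits, TXNDC17 and AKR1C1 had no upper bound there, with lower limits of 1713 h and 27.3 h. No half-life or limit could be given for FTL or PIR there.

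**Figure D4:**
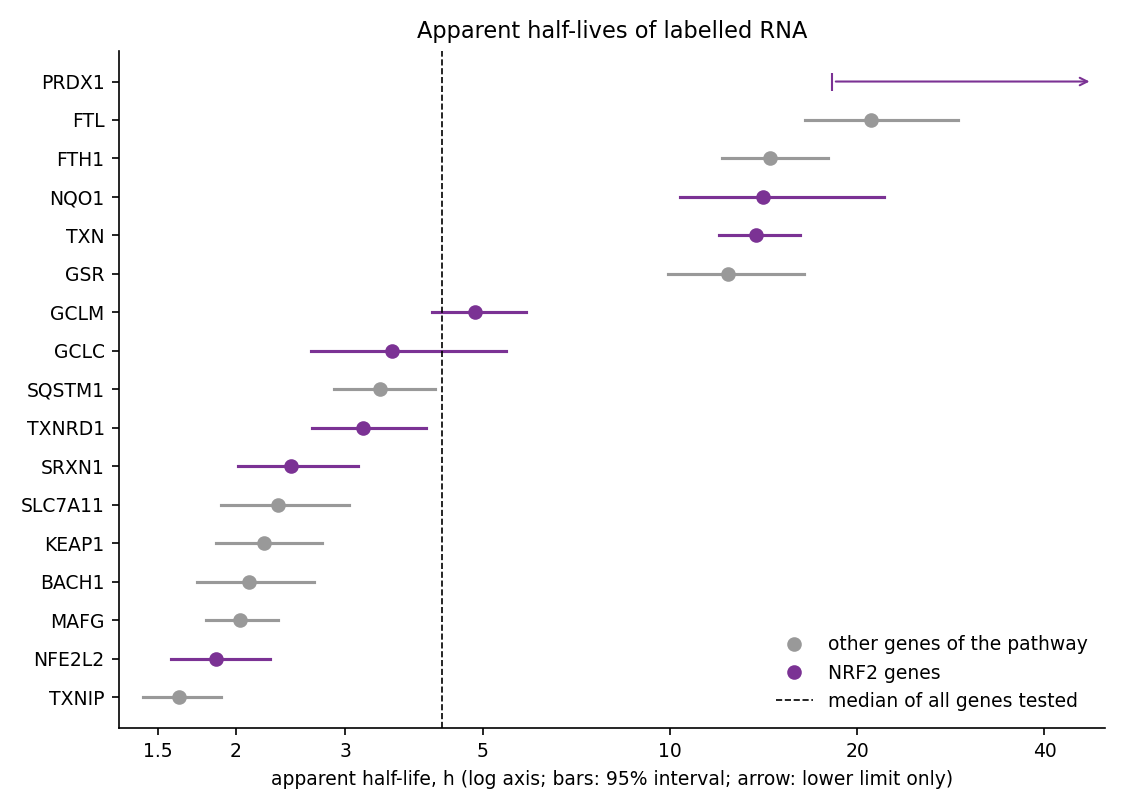
Apparent half-lives in hours (log axis) with 95% intervals for 8 NRF2 genes (purple) and 9 other genes of the pathway (grey), and the median of all genes as a dashed line. An arrow from the lower limit marks PRDX1, whose upper bound is over 48 h. NFE2L2 lies beside MAFG, BACH1 and KEAP1 near 2 h, and TXN and NQO1 lie beside GSR and FTH1 above 10 h.

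Total RNA of the pathway lists went both ways with the pulse. At 0 h against no 4sU, 37 of 103 were higher and 40 lower (median -0.02), beside 32.9% and 32.4% of all genes, so these counts are near the background. Under spike-in scaling 57 and 18 were called, where 7543 and 2993 of all 16255 genes were. SLC7A11 was higher by 2.15 ± 0.13 log2 (17.7 CPM without 4sU and a mean of 83.2 CPM at 0 h, edgeR adjusted p = 2.3e-13), and higher too were BACH1 (1.78 ± 0.16), FTH1 (1.18 ± 0.08), SQSTM1 (0.83 ± 0.09), MAFG (0.52 ± 0.10) and FTL (0.40 ± 0.08). GSR was lower, at -0.95 ± 0.11 (adjusted p = 2.7e-08). KEAP1 was lower, at -0.23 ± 0.09, and turned under spike-in scaling (0.27, not called). TXNIP differed by 0.19 ± 0.10 (adjusted p = 0.0891) and was called higher under spike-in scaling (0.69).

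Among the largest changes of the lists, CHAC1 rose by 3.06 ± 0.28 log2 with the pulse (edgeR adjusted p = 6.9e-10) and HAGH, a glyoxalase, was lower, at -2.30 ± 0.22. GPX1 had 2 counts without 4sU and 27 over both libraries of 0 h, a ratio of 12.3 (95% interval 3.10 to 107, counting error only). TXNRD3 had 23 counts without 4sU and 5 at 0 h, a ratio of 0.199 (0.0590 to 0.534).

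At 4 h 11 of 103 were higher than at 0 h and 45 lower, beside 18.0% and 13.5% of all genes, and 11 and 19 under spike-in scaling. The largest rises were BACH2 (1.39 ± 0.22) and BTRC, an adaptor that also marks NRF2 (0.86 ± 0.19), and the largest falls CHAC1 (-1.92 ± 0.20) and GLRX, a glutaredoxin (-1.46 ± 0.50). At 12 h 15 were higher and 56 lower, beside 28.9% and 27.3% of all genes, and 31 and 28 under spike-in scaling. BTRC (1.64 ± 0.18) and BACH2 (1.29 ± 0.23) led again, with CHAC1 (-3.50 ± 0.24) and GLRX (-2.21 ± 0.54) at the other end. SLC7A11 fell by 2.06 ± 0.10, BACH1 by 1.89 ± 0.13, SQSTM1 by 1.22 ± 0.07 and TXNIP by 0.83 ± 0.08.

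FTH1 fell by 0.62 ± 0.06, FTL by 0.59 ± 0.07 and MAFG by 0.59 ± 0.08 from 0 to 12 h, whereas GSR rose by 0.47 ± 0.09 and KEAP1 did not pass (0.13 ± 0.08, edgeR adjusted p = 0.170). Under spike-in scaling the MAFG call was lost (-0.22, adjusted p = 0.0967) and KEAP1 was called higher (0.49, adjusted p = 1.76e-04). At 12 h against no 4sU, 19 were higher and 49 lower, beside 27.5% and 23.5% of all genes, and 55 and 13 under spike-in scaling. There, BACH2 (2.58 ± 0.30) and GPX1 (45 counts against 2, a ratio of 16.1 with an interval of 4.21 to 137) were highest, and NFE2L3 (-2.23 ± 0.40) and IDH2 (-2.16 ± 0.13) lowest. SLC7A11 (0.09 ± 0.14) and BACH1 (-0.11 ± 0.17) were not called, and both were called higher under spike-in scaling (0.96 and 0.75, adjusted p of 3.10e-06 and 0.00104).

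Across the 13 libraries, the members with like totals were compared by Pearson's r of log2(CPM + 1). This is a description over libraries that differ in depth and in spike-in side. TXNRD1 went with NFE2L2 (r = 0.98) and with TXN (0.98), and GCLM with TXN (0.89) and TXNRD1 (0.88). GCLC went with SRXN1 (0.84), and PRDX1 with NQO1 (0.73). SRXN1 and GCLC ran against or apart from the others, with r of -0.45 between SRXN1 and NFE2L2 and -0.73 between GCLC and PRDX1.

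Among all genes with a mean of at least 20 CPM, the 2 most like each member were as follows. NFE2L2 was nearest to KANSL1 (0.995) and DEGS1 (0.992), TXNRD1 to MAGEA12 (0.997) and RABGGTB (0.994), and TXN to RPL17P36 (0.996) and SRP9 (0.994). GCLM was nearest to ATF4P4 (0.988) and YME1L1 (0.987), and PRDX1 to APOE (0.986) and RPL13 (0.983). SRXN1 was nearest to SETD1A (0.966) and CTDP1 (0.960), GCLC to TXLNG (0.946) and VPS37B (0.941), and NQO1 to RPS10 (0.858) and RPS27 (0.855). No member was the nearest gene of another member.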

How the data were processed

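RNA of K562 cells was measured by SLAM-seq with QuantSeq 3′ libraries and a Drosophila S2 spike-in of 5%, per the labels' protocols. The authors deposited whole-number counts per gene for total, nascent (here labelled) and spike-in reads. bcl2fastq 2.17.1.14, Trim Galore 0.6.5 and bedtools appear in the submitters' processing notes, as do the builds hg38 and dm6. Aligner, counter, annotation, strand use and the count of conversions asked of a nascent read are not given in the sources used. Symbols came from a table of gene names (55381 of 59204 identifiers) and from GENCODE 29 (457).

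Slopes of labelled counts on time were fitted with edgeR 4.0.16 in R 4.3.3, offset by the TMM effective library size of the totals. The quasi-likelihood F-test was two-sided, with Benjamini-Hochberg adjustment over all genes tested and a threshold of 0.05. Genes needed a mean of 5 CPM and 100 labelled counts. Totals were tested over 7 groups that share 1 spread, so the single library without 4sU was assumed to vary like the others. Half-lives are quasi-Poisson fits of an exponential, and an upper bound over 48 h was read as a lower limit only. Pair ratios used a pseudocount of 0.5. DESeq2 1.42.0 was an alternative, and Python 3.11.15 served for the rest. The tests were tried on simulated data. Limits from zeros and the intervals of count ratios cover counting error only.

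Nothing in the labels says whether the 2 replicates were grown apart, so a p-value reflects the spread of these libraries, which may be technical. The members, the lists and the rule for named genes (10 set genes, the 2 shortest and 2 longest half-lives in a list, and the 2 largest rises and falls in a contrast) were chosen with earlier results of these data known. Of the set genes, 1 is not reported here.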

Additional observations from a re-analysis of the deposited data

How the results depend on the processing

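Pair slopes kept their direction and call with another pseudocount, over 2 to 12 h and with each library left out. None of these alternatives used own totals. No member moved across the threshold at 1 h. The HMOX1 and NQO1 pair could not be fitted for want of HMOX1 counts. With own totals as the offset, TXNRD1 was slower than the median gene by 0.1023 log2 per hour. On that offset 5 members were slower, beside 3861 of all 9652 genes, and 3 had negative curvature. The median half-life there was 6.647 h, beside 3.79 h over all genes, the TXN slope was 0.02235 and its loss rate -0.01638 per hour. Over 0 to 4 h, 5 members fell, 3 had negative curvature, the PRDX1 slope was 0.01003, the loss rates of NQO1 and PRDX1 were -0.002958 and -0.01034 per hour, and the median half-life was 9.201 h. Over 2 to 12 h, 1 member had negative curvature. The loss and curvature counts with own totals, over 0 to 4 h and over 2 to 12 h were not compared with those of all genes. With spike-in totals, NQO1 was at 0.08987 and 0 members lower at 0 h against no 4sU, 1 was lower at 4 h, PRDX1 was at 0.09896 and NQO1 at 0.16 at 12 h against 0 h, and PRDX1 at 0.03169, NQO1 at 0.2499 and 0 lower at 12 h against no 4sU. With spike-in side as a factor, 1 member was lower at 4 h, beside 1598 of all 16255 genes. Leaving out 1 library each, 1 to 3 members were lower at 4 h and 3 to 4 higher at 12 h against no 4sU. Beyond what the other scaling or the fewer libraries set, the cause was not tested. Over all genes, 2068 were faster and 2432 slower with the side factor, 1897 and 1683 over 0 to 4 h, and 3404 and 6165 of 24645 with no filter, against 3449 and 3531 of 9652.

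The replicate numbers were not taken as pairs, since deviations of same-numbered libraries correlated over 0.1 for only 5 of 15 pairs of times (-0.18 to 0.493 in all). These 5 were the 3 pairs among 0, 1 and 2 h, that of 1 and 4 h, and that of 4 and 8 h. With a replicate block, 3 members were faster and 3 slower, and 4 instead of 3 were lower at 4 h, PRDX1 being added (adjusted p = 0.0416). GCLC at 12 h rests on 4 and 5 labelled counts, and SRXN1 on 6 and 17, which limits their late slopes.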
